A study of Mus musculus with 12 samples.

Results

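Solute carrier (Slc) genes encode membrane proteins that move sugars, amino acids, nucleotides, vitamins and ions across the plasma membrane and across the membranes of mitochondria, lysosomes and other organelles. Binding of the nuclear receptor Rev-Erbα near these genes was described in brown adipose tissue of mice held in the cold or at thermoneutrality. The members were all peaks whose annotated gene has a symbol that starts with Slc and a family number. They were 215 of 11227 windows in the 4 °C peak list and 40 of 2183 windows in the 29 °C list, and 35 windows of each list overlapped. This gave 220 distinct sites at 111 genes, of 11740 sites at 5589 genes in all.

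Rev-Erbα, encoded by Nr1d1, is a heme-binding repressor of the circadian clock that binds DNA at the hexamer AGGTCA, often with a T in front, and at pairs of such hexamers. In brown fat it is known for restraining thermogenic genes in a daily rhythm. Brown adipocytes burn fatty acids, glucose and amino acids in their mitochondria, so carriers bring in fuel, exchange nucleotides and metal ions, and return lactate and other products to the blood. Most families are named by number, and the number often gives the substrate, for example 2 for hexoses, 16 for monocarboxylates and 25 for the mitochondrial carriers.

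Chromatin was pulled down with anti-HA beads from brown adipose tissue of C57BL/6 mice after 1 week at either temperature. HA-RevErbα mice, which carry the HA epitope on Rev-Erbα, gave 4 libraries at 4 °C (here the cold) and 4 at 29 °C (thermoneutrality). WT mice, without the tag, gave 2 libraries at 4 °C and 2 at 29 °C, pulled down the same way as background. The sources used here do not say how the tagged allele was made, how old the mice were, of which sex, or how many animals gave a library. Each of the 12 libraries held 26.97 to 37.3 M aligned reads. By group they summed to 127.9 M (HA-RevErbα 4 °C), 123.7 M (HA-RevErbα 29 °C), 61.9 M (WT 4 °C) and 63.4 M (WT 29 °C). The pools behind the peak values were smaller than these sums, by a different share in each, and the reason is not known. All peak values are those of 4 pools, 1 per genotype and temperature, of 63.8 M reads (HA-RevErbα 4 °C), 60.8 M (HA-RevErbα 29 °C), 27.1 M (WT 4 °C) and 25.1 M (WT 29 °C). There is thus no replicate check between temperatures, and no test of a difference was possible. Values are in FPKM, which in a peak window of 200 bp is a density of ChIP reads and not a level of expression, so the tissue label could not be checked against marker genes. Unless stated otherwise, a pair of values is that of the HA-RevErbα pools, and the pair set against it is that of the WT pools in the same order. Each 4 °C to 29 °C ratio was taken between the HA-RevErbα pools. It is given with an exact 95% interval for counting error only, with every read taken as independent.

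At the promoters, 8 of the 215 Slc windows of the 4 °C list (3.72%, exact interval 1.62 to 7.2) were annotated as promoter-TSS, and none of the 40 windows of the 29 °C list. The shares over all windows were 3.82% and 2.98%. The promoter of Slc25a34, a mitochondrial carrier, held the strongest of the 8. It had 11.85 FPKM in the HA-RevErbα 4 °C pool, 1.98 in the HA-RevErbα 29 °C pool, 2.59 in WT at 4 °C and 1.6 in WT at 29 °C. Its 4 °C to 29 °C ratio was 6.00 (3.88 to 9.65), and at 29 °C the HA-RevErbα density was close to that of WT. The promoter sequences below, from RefSeq on build GRCm38.p6, each 250 bases before to 50 after a start and all on the minus strand, show 3 of these promoters: that of Slc25a34, that of Slc7a11 (the cystine and glutamate exchanger) and that of Slc10a6 (a carrier of sulphated steroids). They were chosen as the strongest promoter site, as the promoter of the gene whose distal site had the lowest ratio in the 4 °C list, and as the promoter site with the highest density at 29 °C. They are at chr4:141623785-141624084, chr3:50443564-50443863 and chr5:103629354-103629653. Capitals mark every match of AGGTCA or of its reverse complement TGACCT.
Slc25a34: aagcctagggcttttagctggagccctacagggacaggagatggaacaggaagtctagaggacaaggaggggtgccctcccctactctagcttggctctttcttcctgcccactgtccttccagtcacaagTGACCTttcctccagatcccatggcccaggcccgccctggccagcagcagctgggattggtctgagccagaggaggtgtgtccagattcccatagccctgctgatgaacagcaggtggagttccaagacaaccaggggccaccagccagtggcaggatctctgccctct
Slc7a11: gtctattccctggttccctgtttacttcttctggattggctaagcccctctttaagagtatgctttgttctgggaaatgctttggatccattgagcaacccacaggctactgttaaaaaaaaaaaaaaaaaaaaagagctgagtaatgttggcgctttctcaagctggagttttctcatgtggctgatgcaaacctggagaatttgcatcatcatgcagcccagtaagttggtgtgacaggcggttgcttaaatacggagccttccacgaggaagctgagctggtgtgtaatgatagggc
Slc10a6: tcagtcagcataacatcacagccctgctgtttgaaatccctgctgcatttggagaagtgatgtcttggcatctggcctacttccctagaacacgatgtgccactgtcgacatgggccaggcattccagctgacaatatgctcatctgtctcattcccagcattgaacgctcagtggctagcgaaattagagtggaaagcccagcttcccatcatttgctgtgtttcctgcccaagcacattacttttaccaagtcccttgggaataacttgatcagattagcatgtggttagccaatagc

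Of the 8 genes, Slc25a34 alone had a match of AGGTCA in its RefSeq window, on the reverse strand, starting 119 bases before the start. The authors' table lists the peak at -118 bp from the start, in an annotation on another build. The hexamer, on either strand, was present at 18.1% of the 27025 genes with a promoter in the table and at 17.01% of the 294 Slc genes among them. With a T before it (TAGGTCA, a subset of the same matches) the shares were 2.97% of all genes and 3.06% of Slc genes. A pair of hexamers in the same direction, spaced by 2 bases, occurred at 2 genes of all and at no Slc gene. Among the 333 genes with a promoter-TSS peak at 4 °C, 20.4% had the hexamer and 6.61% had it with the T. No match says only that these letters are not in the window.

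The other promoter sites were weaker. Slc25a25, which exchanges ATP-Mg for phosphate across the inner mitochondrial membrane, had 10.13 FPKM in the cold and 2.48 at thermoneutrality in the HA-RevErbα pools, against 2.22 and 2.0 in the WT pools at 4 and 29 °C. At the Slc7a11 promoter the 4 °C value was 6.52 and the 29 °C value 1.82, against 0.93 and 1.21 in WT. Those of Slc10a6 were 6.83 and 2.97, against 1.48 and 1.21 in WT. In these 3 promoters the HA-RevErbα value exceeded WT at both temperatures, by little at 29 °C for Slc25a25 and Slc7a11. The remaining 4 were at Slc9a3r2, Slc7a6 (a cationic amino acid exchanger), Slc30a9 (zinc family) and Slc1a1 (a glutamate transporter), with 3.07 to 6.13 FPKM at 4 °C and 0.59 to 2.07 at 29 °C, against 0.01 to 1.12 and 0.21 to 2.4 in WT. At Slc7a6 the 29 °C value, 1.65, was below the 2.4 of WT. Slc9a3r2 and Slc9a3r1 match the symbol rule but encode adaptor proteins that bind an exchanger, not carriers.

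Most Slc sites lay far from promoters. Of the 215 windows of the 4 °C list, 96 were intergenic (44.7%; 44.3% of all windows), 103 intronic (47.9%; 47.8% of all), 4 at transcript ends, 3 in 3′ UTRs and 1 in an exon. The median distance to the annotated start was 24.4 kb, against 27.5 kb over all windows, and in the 29 °C list 19.9 kb against 28.9 kb. At 10 to 50 kb lay 100 windows, or 46.5% (39.7 to 53.4), against 40.1% of all windows. Upstream of the start lay 109 windows, 50.7%, against 43.3% of all.

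The annotated gene is the one with the nearest start, and for some of the strongest sites the peak itself was inside another gene. Of the 103 intronic windows, 80 were in an intron of the Slc gene itself and 23 in one of another gene (77.7% in the own gene, against 72.1% over all intronic windows). Counting exons, UTRs and transcript ends too, 29 windows at 21 Slc genes lay in another gene's transcript. Among them were 4 of the 7 sites of Slc25a51 in Shb, 3 of the 6 sites of Slc41a2 in Chst11, 2 of the 4 of Slc25a34 in Plekhm2 and both sites of Slc29a3 in Unc5b. Slc6a18 and Slc36a3 had their sites in introns of the neighbouring carriers Slc6a19 and Slc36a2. Which gene a site acts on was not measured.

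The Slc share of genes with a peak was 29.5% in the 4 °C list (110 of 373 Slc genes; exact interval 24.9 to 34.4), where 21.8% of 21031 protein-coding genes had one. In the 29 °C list it was 8.85% (33 genes; 6.17 to 12.2), where 6.3% of all had one. Of the 111 genes, 32 had peaks in both lists (28.8%; 26.7% of the 5589 genes), 78 in the 4 °C list only (70.3%; 70.9% of all) and 1, Slc22a14, in the 29 °C list only (0.901%; 2.47% of all). Of 50 families, 37 had a gene with a 4 °C peak and 21 one with a 29 °C peak, and 13 had none. Sites per gene averaged 1.95 in the 4 °C list, against 2.06 over all genes. In that list 61 of 110 Slc genes had 1 site, where 2976 of 5451 genes did.

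By substrate, cation-chloride cotransporters had the highest share of genes with a 4 °C peak, 5 of 9, followed by sodium, calcium and proton exchangers with 10 of 23 and monocarboxylate carriers with 6 of 14. The 10 include Slc9a3r1 and Slc9a3r2, which encode adaptor proteins and not exchangers, and without them the monocarboxylate share would be the higher. Amino acid carriers had 21 of 65 and mitochondrial carriers 16 of 47. Lower shares were found for zinc carriers (3 of 24), bicarbonate and anion exchangers (3 of 22), fatty acid transport proteins (1 of 6) and phosphate and sulphate carriers (4 of 23). At 29 °C the counts were 0 of 9 cation-chloride cotransporters, 3 of 23 cation and proton exchangers, 3 of 14 monocarboxylate, 5 of 65 amino acid and 4 of 47 mitochondrial carriers. Groups follow family numbers, so Slc13a2, a dicarboxylate carrier, is counted with phosphate and sulphate, and the peroxisomal carrier Slc25a17 with the mitochondrial carriers. These counts are small, and differences between groups were not tested.

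**Figure D1:**
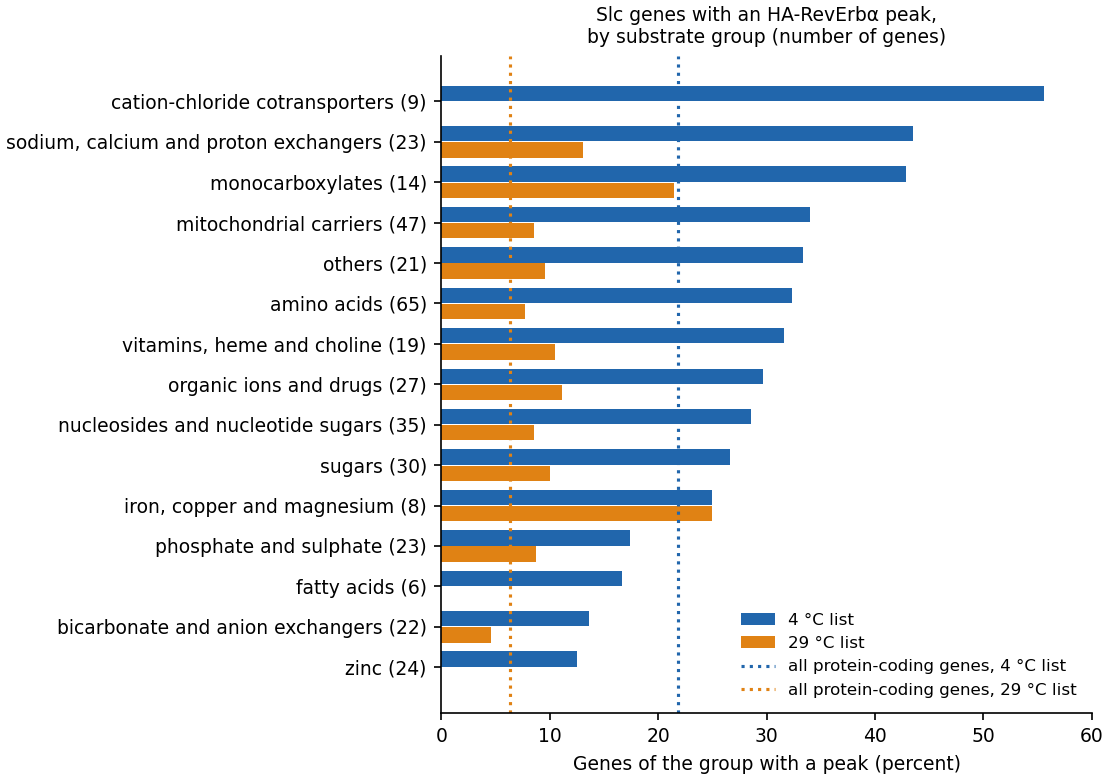
Percent of the genes of each Slc substrate group that are the annotated gene of at least 1 HA-RevErbα peak in the 4 °C list (blue) and in the 29 °C list (orange), with the number of genes of the group in brackets. Dotted lines give the shares of all protein-coding genes, 21.8% and 6.3%. The 4 °C share lies above its line in 11 of the 15 groups.

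Read density was higher at 4 °C than at 29 °C in nearly all Slc windows of the 4 °C list, as in that list as a whole. Over the 215 windows of the 4 °C list the median was 7.07 FPKM in the cold and 2.31 at thermoneutrality in the HA-RevErbα pools, against 1.12 and 1.21 in WT. The median ratio was 3.21, with 1.83 and 5.79 as its 10th and 90th percentiles, against 3.05 over all windows. Its interval lay above 1 in 207 windows, 96.3%, where 95.4% of all windows did so. The 40 windows of the 29 °C list had a median ratio of 1.97 (1.02 to 2.67), against 1.64 over all. In 33 of them, 82.5% (67.2 to 92.7), the interval lay above 1, where 66.8% of all windows did so. Each list was chosen on the signal at its own temperature. In whole tissue, fewer nuclei with a bound site and less binding per nucleus cannot be told apart.

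Scaling the pools by WT reads in the shared windows of all genes, in place of their total reads, divides every ratio by 1.44, a shift of 0.53 on the log2 scale for all windows alike. The median ratios were then 2.23 and 1.36, and ratios stayed above 1 in 207 Slc windows of the 4 °C list (95% of all windows) and in 31 of the 29 °C list (77.5%; 61.8% of all). By WT reads in all windows of the 4 °C list the ratios above 1 numbered 213 (98.6% of all windows) and 36 (81.3% of all). The intervals above 1 numbered 207 (95.1% of all) and 33 (65.6% of all). By WT reads in all windows of the 29 °C list the ratios above 1 numbered 197 (90.5% of all) and 25 (45.6% of all). Intervals above 1 were then 149 (65.6% of all) and 13 (21.3% of all). The windows were themselves selected for low WT signal, so WT reads in them are not a neutral standard.

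**Figure D2:**
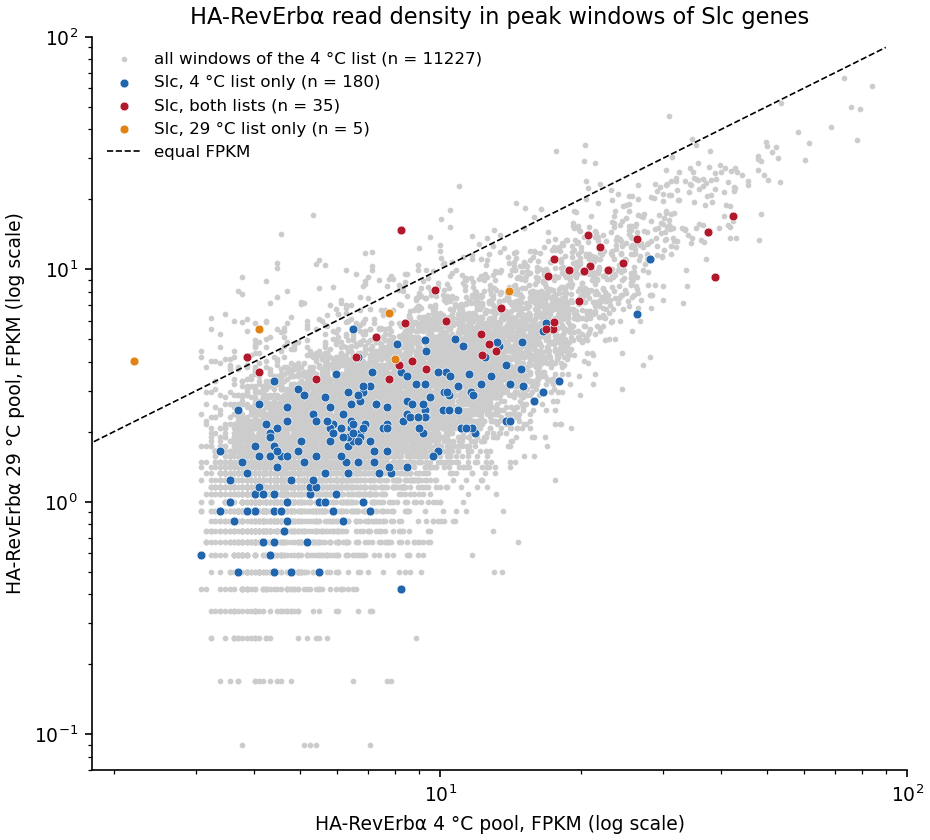
HA-RevErbα FPKM in the 29 °C pool against the 4 °C pool on log axes, for all 11227 windows of the 4 °C list (grey) and for the Slc sites, coloured by the list that holds them. Of the 215 Slc windows of the 4 °C list 213 lie below the line of equal FPKM, with Slc7a11 the farthest above it.

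The 4 °C list shared 35 Slc sites with the 29 °C list, 16.3% of its Slc windows (11.6 to 21.9), where 14.9% of all its windows were shared. They made up 87.5% of the Slc windows of the 29 °C list (73.2 to 95.8), where 76.5% of all were shared. The annotated gene was the same in both lists at each of the 35. Shared sites had a median of 13.5 FPKM in the cold and 6.01 at thermoneutrality in the HA-RevErbα pools, against 1.67 and 0.81 in WT. Of the 180 Slc windows in the 4 °C list only, 148 had a higher HA-RevErbα density than WT density at 29 °C (82.2%, where 83.8% of all such windows did). At its own temperature every listed window exceeded WT by 3 FPKM or more. All but 47 windows of the 4 °C list and 6 of the 29 °C list were at least 4 times WT by the deposited values, and the lowest folds were 3.99 and 3.97. Of the 180 windows, 1 reached both marks at 29 °C too, where 1% of all such windows did. It was the transcript-end site of Slc29a1, an equilibrative nucleoside transporter, with 10.75 FPKM in the cold and 5.03 at thermoneutrality, against 2.59 and 1.21 in WT. Of the rest, 8 missed the fold alone, 20 the difference alone and 151 both. With the Slc29a1 site included, 9 of the 180 reached the difference and 21 the fold. Over all 9557 windows in the 4 °C list only, 549 and 1185 did.

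Metal ion carriers held the strongest Slc site. Slc41a2 encodes a magnesium transporter and had 6 sites in the 4 °C list, all 127 to 172 kb downstream of its start and none within the gene. The strongest, at chr10:82673959-82674159 on build mm9, had 42.35 FPKM in the cold and 17.03 at thermoneutrality in the HA-RevErbα pools, against 2.41 and 2.60 in WT. It ranked 34 of 11227 by the authors' peak score at 4 °C and 130 of 2183 at 29 °C, and its ratio was 2.49 (2.12 to 2.93). The second, in an intron of Chst11 at chr10:82644591-82644791, had 28.16 FPKM in the cold and 11.11 at thermoneutrality, against 2.04 and 3.20 in WT. It is in the 4 °C list only, and at 29 °C it was under 4 times WT. The other 4 sites had 10.36 to 13.81 FPKM at 4 °C and 2.07 to 3.88 at 29 °C, with ratios of 3.50 to 5.53. The ratio was lowest at the 2 strongest sites of the cluster, and the intervals of the strongest site and of the 5.53 site (3.60 to 8.83) did not overlap. Slc41a3, of the same family, had 1 shared site with 7.77 FPKM in the cold and 3.38 at thermoneutrality, against 1.48 and 0.21 in WT. The zinc carriers Slc39a10 and Slc39a11 had 3 sites with 3.54 to 7.38 FPKM at 4 °C and 0.91 to 1.33 at 29 °C, all in the 4 °C list only. WT had 0.19 to 1.67 and 0.41 to 1.21 there.

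**Figure D3:**
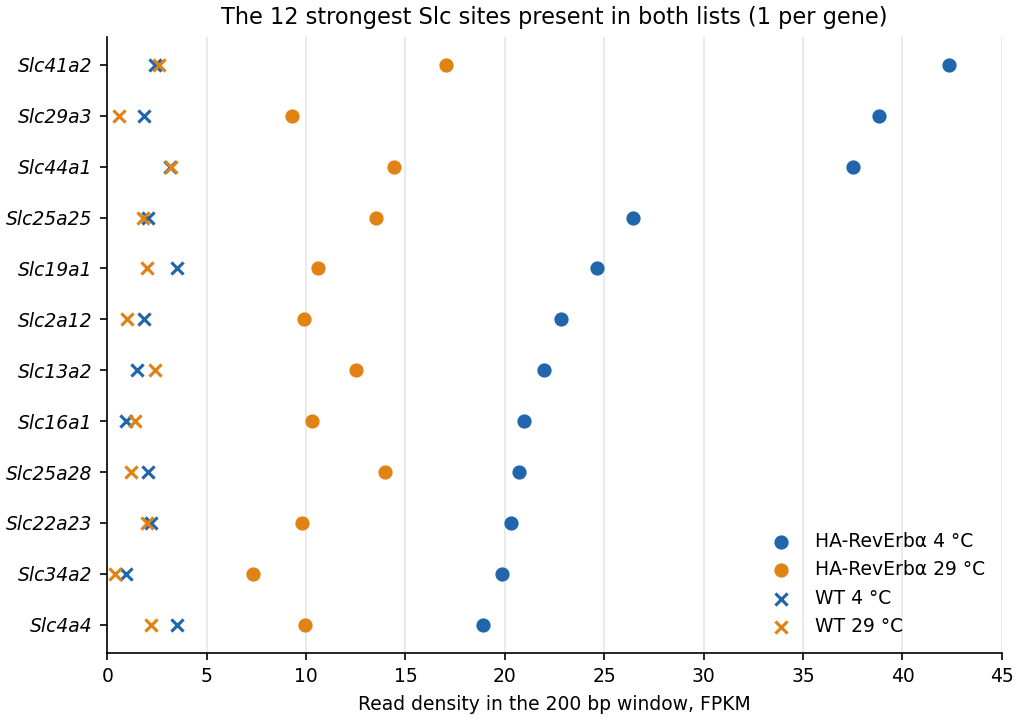
Read density in FPKM in all 4 pools at the 12 strongest Slc sites found in both lists, 1 per gene, in the order of the 4 °C peak score. Circles are HA-RevErbα pools and crosses WT pools, blue 4 °C and orange 29 °C. In each of the 12 rows the HA-RevErbα 4 °C value is the highest and both WT values are the lowest.

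Nucleoside carriers followed. Slc29a3, an equilibrative nucleoside transporter of lysosomes, had 38.83 FPKM in the cold and 9.30 at thermoneutrality in the HA-RevErbα pools, against 1.85 and 0.61 in WT. The window, at chr10:60250782-60250982 in the first intron of Unc5b, ranked 50th in the 4 °C list. Its ratio of 4.18 (3.4 to 5.17) was the largest of the 35 shared Slc sites, and its interval lay above that of the Slc41a2 site. The concentrative transporter Slc28a1 had 3 sites with ratios of 2.95 to 3.04 and 17.50 FPKM in the cold and 5.93 at thermoneutrality in the strongest, against 2.04 and 1.21 in WT. Slc29a4 had 17.03 and 9.39 FPKM, against 0.56 and 1.01 in WT. Family 35, which includes the nucleotide sugar carriers, had 6 genes with a site, all in the 4 °C list only, and a median ratio of 5.68 over 7 windows. It rested on low 29 °C values, with a median of 1.08 FPKM, where WT had 1.21 in these windows.

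Carriers of vitamins and choline had 5 shared sites among 14 windows. Slc44a1, a choline transporter, had 37.49 FPKM in the cold and 14.40 at thermoneutrality in its strongest window, at -55.4 kb from the start, against 3.14 and 3.20 in WT. Its weakest site, at -9.6 kb, had 3.85 FPKM in the cold and 4.2 at thermoneutrality, against 0.19 and 0.61 in WT, and a ratio of 0.916 (0.606 to 1.38). The neighbouring window, at -8.4 kb, had 10.28 and 6.01 FPKM and a ratio of 1.71 (1.28 to 2.31). The strongest window had a ratio of 2.60 (2.19 to 3.11), an interval above that of the weakest. Slc19a1, the reduced folate carrier, had 24.63 FPKM in the cold and 10.62 at thermoneutrality in its strongest window, against 3.51 and 2.0 in WT. Another of its sites lay in the 3′ UTR of Col18a1, with 7.30 FPKM in the cold and 5.11 at thermoneutrality and a ratio of 1.43 (1.03 to 2.01), which was 0.993 under the scaling by WT reads in shared windows.

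Mitochondrial carriers, taken as all of family 25, had the most windows of all groups. There were 40 at 16 genes in the 4 °C list and 5 at 4 genes in the 29 °C list. They include Slc25a17, a peroxisomal carrier, with 2 windows in the 4 °C list and 1 in the 29 °C list. The 40 ratios ran from 1.48 to 9.69 and all 40 intervals lay above 1. Slc25a25 had 4 sites within 6.1 kb of its start. The strongest, in the first intron, had 26.44 FPKM in the cold and 13.50 at thermoneutrality in the HA-RevErbα pools, against 2.04 and 1.8 in WT. Its ratio was 1.96 (1.62 to 2.38). At the promoter of the same gene the ratio was 4.1 (2.74 to 6.32), so the intervals of the 2 sites did not overlap. Slc25a34 had 26.44 FPKM in the cold and 6.42 at thermoneutrality in its first intron, against 1.48 and 1.8 in WT, and this was the second strongest Slc window listed at 4 °C only, after that of Slc41a2 in Chst11. The iron importers Slc25a28 and Slc25a37 are the mitoferrins. The strongest Slc25a28 window, in both lists, had 20.71 FPKM in the cold and 13.99 at thermoneutrality, against 2.04 and 1.21 in WT. Its ratio of 1.48 (1.22 to 1.81) was the group's lowest, and it turned to 0.868 when WT reads in the windows of the 29 °C list set the scale. The 1 window of Slc25a37 had 11.22 FPKM in the cold and 4.70 at thermoneutrality, against 2.77 and 2.60 in WT.

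The largest number of sites belonged to Slc25a33, a carrier of pyrimidine nucleotides. Its 10 windows lay 6.5 to 84.5 kb upstream of the start, all intergenic and all in the 4 °C list only. They had 4.79 to 9.89 FPKM at 4 °C and 0.50 to 4.78 at 29 °C in the HA-RevErbα pools, against 0.38 to 2.04 and 1.01 to 2.40 in WT. Their ratios ran from 1.69 (1.22 to 2.38) at -17.4 kb to 9.69 (4.21 to 27.4) at -84.5 kb. Slc25a51, the mitochondrial NAD carrier, had 7 windows 2.9 to 59.0 kb upstream with 5.42 to 11.62 FPKM at 4 °C and 1.16 to 3.14 at 29 °C, also in the 4 °C list only. WT had 0.93 to 2.41 and 0.61 to 2.20 in them. No single window of either gene was among the 12 strongest Slc sites. Slc25a44, which imports branched-chain amino acids into mitochondria, had 1 intronic site with 12.48 FPKM in the cold and 4.2 at thermoneutrality, against 2.77 and 1.8 in WT. Slc25a5, an ADP/ATP translocase, had 9.26 and 3.22 FPKM at a site 8.8 kb downstream of its start, against 1.48 and 0.41 in WT.

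**Figure D4:**
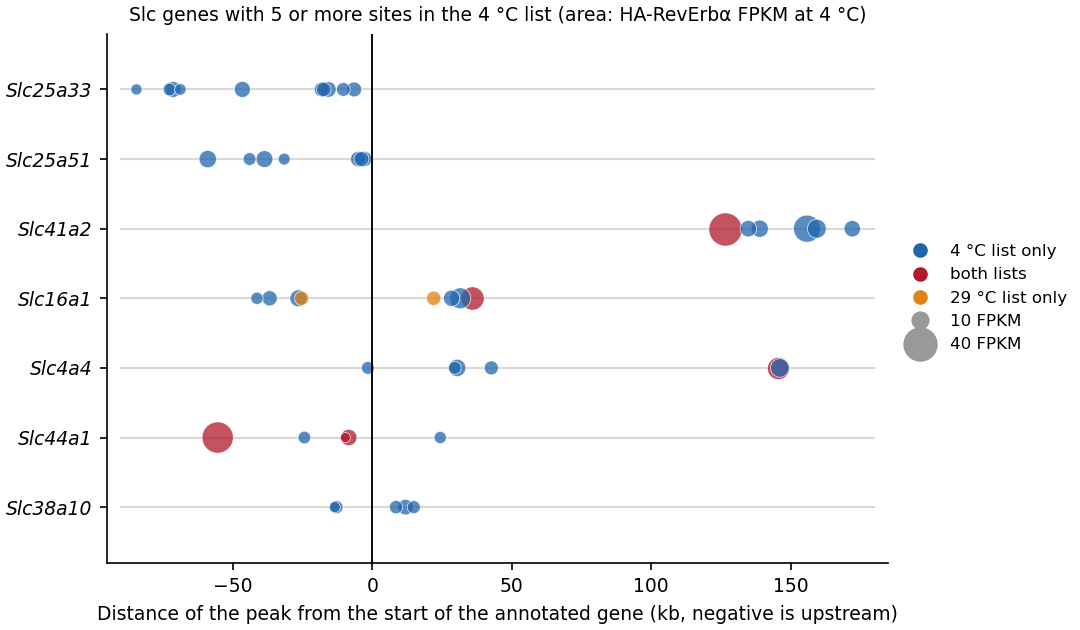
Distance in kb of each site from the start of the annotated gene, for the 7 Slc genes with 5 or more windows in the 4 °C list. The area of a circle is the HA-RevErbα FPKM at 4 °C and its colour gives the list. Slc25a33 and Slc25a51 have all sites upstream, and the 6 of Slc41a2 lie 127 to 172 kb downstream.

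Among carriers of fuel, Slc16a1 (the lactate and pyruvate transporter MCT1) had the most sites, 6 in the 4 °C list and 3 in the 29 °C list, 1 of them shared. The shared site, 35.8 kb downstream of the start, had 20.95 FPKM in the cold and 10.29 at thermoneutrality in the HA-RevErbα pools, against 0.93 and 1.41 in WT. The 2 further sites of the 29 °C list had 7.77 and 8.01 FPKM at 4 °C and 6.51 and 4.12 at 29 °C. WT had 2.77 and 3.70 there at 4 °C and 1.01 and 0.41 at 29 °C. The ratios were 1.19 (0.88 to 1.63), an interval that includes 1, and 1.95 (1.37 to 2.79), and at 4 °C both windows were under 4 times WT. Slc2a12, a glucose transporter, had 22.83 FPKM in the cold and 9.88 at thermoneutrality at a shared site at -56.8 kb, against 1.85 and 1.01 in WT. Its second site, at -88.4 kb, had 5.19 and 0.67 FPKM, against 1.30 and 1.41 in WT. The ratio there was 7.87 (3.77 to 18.98), above the 2.31 (1.86 to 2.88) of the first. It rested on 8 reads at 29 °C, where the HA-RevErbα density was below that of WT. Slc2a1 and Slc2a4, which encode the glucose transporters GLUT1 and GLUT4, had no peak in either list. Of the fatty acid transport proteins only Slc27a6 had sites, with 8.64 and 7.77 FPKM at 4 °C and 2.31 and 1.41 at 29 °C, against 0.38 and 0.93 in WT at 4 °C and 0.61 and 1.21 in WT at 29 °C. Slc13a2, which takes up dicarboxylates and citrate, had 21.97 FPKM in the cold and 12.51 at thermoneutrality in its first intron, against 1.48 and 2.40 in WT.

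Of 26 transporters listed for their known roles in adipose tissue, 11 had a 4 °C peak, where 29.5% of Slc genes and 21.8% of all genes had one. As the 26 were chosen with earlier results of these data known, no excess over such shares can be read from their counts. A 29 °C peak was found at 4, where 8.85% of Slc genes and 6.3% of all genes had one, and 15 had neither. The 4 with both were Slc16a1, Slc25a25, Slc4a4 and Slc7a10. Slc4a4, a sodium and bicarbonate cotransporter, had 6 sites, the strongest in its intron 4 with 18.91 FPKM in the cold and 9.96 at thermoneutrality, against 3.51 and 2.20 in WT. Slc7a10, a neutral amino acid exchanger and marker of white adipocytes, had 2 sites, at -15.1 and -13.6 kb. The first, in both lists, had 8.40 FPKM in the cold and 5.85 at thermoneutrality, against 1.30 and 0.41 in WT, and the second had 7.07 and 1.82 FPKM, against 1.67 and 1.8 in WT. Their ratios of 1.44 (1.05 to 1.97) and 3.90 (2.43 to 6.53) did not overlap in interval. The members without a peak included Slc25a20 (the carnitine carrier), Slc25a1 (the citrate carrier), Slc27a1, Slc3a2, Slc7a5 and Slc6a8 (the creatine transporter).

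Amino acid carriers held the exception to the general direction within the 4 °C list. A window 131 kb downstream of the start of Slc7a11, at chr3:50115986-50116186 on mm9, had 8.24 FPKM in the cold and 14.81 at thermoneutrality in the HA-RevErbα pools, against 0.38 and 0.41 in WT. Its ratio of 0.556 (0.433 to 0.711) was the only one of the 4 °C list's Slc windows with an interval below 1, where 46 of all 11227 windows had one. The window is annotated as a (CTCA)n simple repeat and is the same in both lists, where it ranked 177 of 2183 at 29 °C. The promoter of the gene, in contrast, had a ratio of 3.60 (2.23 to 6.05). Whether reads in the repeat were placed uniquely was not tested. Repeats of any kind were annotated at 40 Slc windows of the 4 °C list, 18.6%, against 13.5% of all. Slc6a6, the taurine transporter, had 4 sites with 10.28 to 16.63 FPKM at 4 °C and 2.23 to 3.63 at 29 °C, against 1.67 to 3.14 and 1.21 to 3.0 in WT, none of them in the 29 °C list. Slc1a5, which takes up glutamine, had 14.91 FPKM in the cold and 3.71 at thermoneutrality at -1.0 kb, against 2.22 and 2.0 in WT. Slc38a2, also a glutamine carrier, had 4 upstream sites of 4.17 to 5.89 FPKM at 4 °C and 0.50 to 1.98 at 29 °C. WT had 0.19 to 1.12 and 0.21 to 1.21 there, and the ratios ran up to 11.1 (4.86 to 31.3).

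Among ion exchangers, Slc9a3 had the highest ratio of all Slc windows. This sodium and proton exchanger, NHE3, had 8.24 FPKM in the cold and 0.42 at thermoneutrality in its second intron, against 0.93 and 1.01 in WT. The ratio of 20.02 (8.31 to 62.9) rested on 5 reads at 29 °C, and the HA-RevErbα density there was below that of WT. Its second site had 4.32 and 0.59 FPKM, against 0.38 and 0.21 in WT, and a ratio of 7.49 (3.4 to 19.5). Slc9a2 had 17.97 FPKM in the cold and 3.30 at thermoneutrality, against 0.75 and 0.81 in WT. Slc8a1, the sodium and calcium exchanger, had 3 sites in its second intron, and the shared one had 4.09 FPKM in the cold and 3.63 at thermoneutrality, against 0.56 and 0.61 in WT. Its interval (0.740 to 1.72) included 1. The 12 windows of the cation-chloride cotransporters, at Slc12a2, Slc12a3, Slc12a7, Slc12a8 and Slc12a9, had 3.54 to 8.56 FPKM at 4 °C and 1.0 to 2.72 at 29 °C, and none was in the 29 °C list. WT had 0.01 to 1.85 and 0.21 to 3.20 there.

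**Figure D5:**
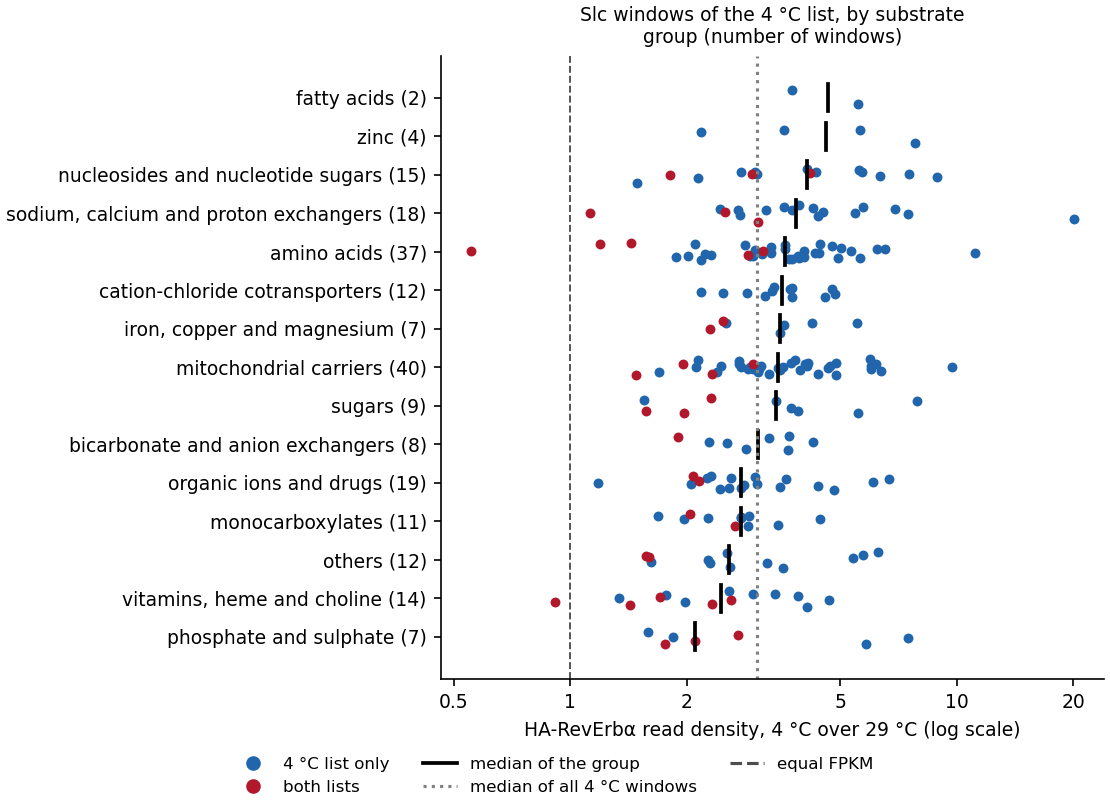
Ratio of HA-RevErbα read density, 4 °C over 29 °C, on a log axis for each Slc window of the 4 °C list, by substrate group, with the number of windows in brackets. Black bars are group medians, and the dotted line is the median of all windows, 3.05. The medians run from 2.11 for phosphate and sulphate carriers to 4.65 for fatty acid transport proteins. The first is the value of a window of Slc13a2, a dicarboxylate carrier placed in that group by its family number. The second rests on 2 windows of 1 gene. Sites in both lists (red) have a median of 2.08 and those in the 4 °C list only one of 3.55. Over all windows these medians were 1.88 and 3.28. Being in both lists depends on the 29 °C signal, the denominator of the ratio, so a lower ratio there follows from the selection.

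Windows in the 29 °C list only were 5, at 4 genes. Besides the pair at Slc16a1, Slc25a17, a peroxisomal carrier, had 14.05 FPKM in the cold and 8.07 at thermoneutrality, against 3.88 and 1.8 in WT, a ratio of 1.74 (1.35 to 2.25). At these 3 windows the HA-RevErbα value by total reads was higher at 4 °C, with an interval above 1 at 2 of them. Each was 2.16 to 3.62 times WT at 4 °C. Slc22a14 had 2.21 FPKM in the cold and 4.04 at thermoneutrality in an intron of Slc22a13, against 1.12 and 0.61 in WT. Its ratio of 0.545 (0.330 to 0.884) had an interval below 1, and the nearest window of the 4 °C list was 34.6 kb away. Of the 40 Slc windows of the 29 °C list, 2 had an interval below 1, where 169 of all 2183 windows did.

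Of the 49 Slc genes with at least 2 windows in the 4 °C list, 18 had windows whose ratio intervals did not overlap (36.7%), where 33.2% of all 2475 such genes did, so this was close to the share over all genes. In 5 stretches, Slc sites of neighbouring Slc genes lay within 250 kb of each other, 18 sites at 12 genes in all. In 1 of them, Slc12a7, Slc6a18 and Slc6a19 had 6 sites over 116 kb of chromosome 13, with ratios of 2.19 to 3.74. Such stretches were not counted over all genes, so whether Slc sites lie together more often than others was not tested.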

How the data were processed

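The 12 ChIP-seq libraries were grouped by genotype and temperature from their titles. The submitters' processing notes list mm9, HOMER 4.10 and Bowtie2 2.1.0 but not what each did. The settings of peak calling and the handling of duplicates are unknown. Per-library files are aligner logs with read counts as deposited by the authors. Per the file headers, the 2 peak lists (1 per temperature) hold FPKM of 4 pools, a peak score and the distance to the nearest gene start. The values themselves show 0.01 added to every deposited FPKM. In each pool, 100% of the values, once the 0.01 was taken off, fell within 0.01 FPKM of a whole number of equal steps. Since 1 step is 1 read, window reads and pool sizes followed from it. In the Slc windows of the 4 °C list, the HA-RevErbα median was 90 reads at 4 °C and 28 at 29 °C, and WT had 6 at each. The count test named for recovered reads needs replicates, which pools lack, so no p-value was made.

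Windows of the 2 lists that overlapped by 1 bp or more count as 1 shared site, described by its 4 °C window. Ratios and shares have exact Clopper-Pearson 95% intervals. Those of ratios hold counting error alone and take every read as independent. PCR reads carrying no molecular identifiers are not independent molecules, so these intervals may be too narrow. Those of shares take genes or windows as independent draws, which windows close together may not be. Coordinates are as in the files, with the base that starts are counted from not given. All 111 Slc gene IDs matched the RefSeq gene table (GRCm38.p6), used for names only; 373 protein-coding Slc genes with a curated transcript were the denominator, without 2 Slc genes that the lists give under other symbols. Introns were assigned through the transcript in the authors' annotation. Promoter words were searched on both strands with Python 3.11.15 (numpy 2.4.6, pandas 2.3.3, scipy 1.17.1). Step recovery, intervals, overlaps and word search were tested on simulated data. The members, substrate groups, the list of 26 adipose transporters and the rule for named genes were chosen with earlier results of these data known. The rule took Slc41a2, the 12 strongest Slc sites in both lists and in the 4 °C list only, those in the 29 °C list only, the 5 largest and 5 smallest ratios of shared sites, the 5 genes with most sites, promoter sites, up to 4 genes per substrate group and the list of 26. Slc25a37, Slc29a1, Slc35 as a family and the neighbouring Slc genes were named after their values were seen. Alternatives were other distance limits, a stricter peak limit, other overlaps, WT scaling, WT subtraction and 1 window per gene. Values of some single members are not reported here.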

Additional observations from a re-analysis of the deposited data

How the results depend on the processing

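No paired analysis was possible because every peak value is that of a pool and carries no replicate; for the same reason no library could be left out. Counting only peaks within 10 kb of the gene start left 46 Slc genes at 4 °C and 10 at 29 °C. These were 41.8% and 30.3% of the Slc genes with a peak, where 42.5% and 29.7% of all such genes remained. Requiring 6 FPKM over WT left 63 and 18 Slc genes. These were 57.3% and 54.5%, where 58.0% and 39.4% of all genes remained. Scaling by WT reads in shared windows gave median ratios of 2.23 for the 4 °C list and 1.36 for the 29 °C list. Scaling by WT reads in all windows of the 29 °C list, added after the data were seen, gave 1.88 and 1.15; that list was selected for low WT signal at 29 °C. Subtracting WT raised the 4 °C list's median to 5.39, with 32 windows at or under WT at 29 °C set to the value of 3 reads. The other 12 alternatives for counts and medians stayed within 1.5 times the main count or within the interval of the median. Of 75 named sites, 35 stayed within their interval under the shared-window scaling. Among sites whose interval excluded 1, direction turned at Slc19a1 (3′ UTR of Col18a1) under that scaling, to 0.993. Under the scaling by the 29 °C list it turned at the same site, to 0.838, and at Slc25a28, at the peptide carrier Slc15a1 and at the phosphate carrier Slc20a2, to 0.868, 0.923 and 0.931, where total reads gave 1.48, 1.58 and 1.59. At 3 sites whose interval included 1 the ratio also crossed 1: under the shared-window scaling to 0.8289 at Slc36a3, 0.782 at Slc8a1 and 0.8293 at the 29 °C-list site of Slc16a1 with 7.77 FPKM at 4 °C, and under that by the 29 °C list to 0.700, 0.660 and 0.700. At 29 °C, 14 of the 215 windows rested on 10 reads or fewer, so their ratios are known only within wide intervals.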
